A study of Mus musculus with 18 samples.

Results

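Heterotrimeric G proteins carry the signal of a G protein-coupled receptor into the cell, and RGS proteins end it. The 52 genes described here are the 15 alpha, 5 beta and 12 gamma subunits and 20 RGS (regulator of G protein signaling) proteins. They were chosen by name, were found under their symbols in all 18 expression files, and stand among 45151 gene symbols that the files share. Male C57BL/6J mice aged 16 weeks, wild type and fed regular chow, gave 6 samples of adipocytes from iWAT (inguinal white adipose tissue), 6 of adipocytes from eWAT (epididymal white adipose tissue) and 6 of whole BAT (brown adipose tissue). The paper examined the metabolic effects of activating Gs, the stimulatory G protein, in mouse adipocytes. These samples served in it to identify receptors coupled to Gs that are present in the depots.

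The iWAT and eWAT cells had been released with collagenase and were the floating layer of the digest, whereas the BAT samples were frozen tissue that was not digested. In a comparison with BAT, depot cannot be told apart from preparation. The files of iWAT and BAT hold 1 row per gene with its exons merged, while those of eWAT hold 1 row per transcript, so the kind of file cannot be told apart from eWAT either. For each member the merged row was set against the eWAT transcript with the most reads, and these 2 rows were the same for Gna12, Gng3 and Rgs18. Gnb4 has a row in common as well, but it is a second row, on the opposite strand, and was not the one compared. That transcript was never longer than the merged row, and 6 merged rows were more than 2 times as long. Samples are named by the number in their titles, written here as the number of a mouse, although the labels do not say what it marks. The total of reads per sample was between 22929576 and 34512470.

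Markers of white and brown fat were looked up first. The mean RPKM (reads per kilobase of row, scaled to the total of reads of the sample) of the adiponectin gene Adipoq was 1854 ± 237 (SD, n = 6) in iWAT, 1789 ± 508 in eWAT but 302 ± 47.7 in BAT. Ucp1, the uncoupling protein of brown fat, was at 2.82 ± 1.92 in iWAT, 0.325 ± 0.165 in eWAT but 1219 ± 189.5 in BAT. Some libraries also carried markers of other cell types. The summed RPKM of the 8 macrophage markers found, none of which was at 0 throughout a depot, was 2195 in the eWAT sample of mouse 15, 160 to 523 in the other eWAT samples, 32.2 to 180 in iWAT and 26.8 to 59.4 in BAT. The 6 endothelial markers were highest in the iWAT sample of mouse 14 and the eWAT sample of mouse 8, and the 5 skeletal muscle markers reached 1340 in the BAT sample of mouse 12. In tissue and in adipocyte layers that hold other cells, fewer cells of a type and less RNA per cell cannot be told apart.

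As background, a receptor that has bound its ligand makes the alpha subunit exchange GDP for GTP, and alpha then parts from the beta-gamma pair. Gs alpha (Gnas) activates adenylyl cyclase, the step by which catecholamines drive lipolysis in white fat and heat production in brown fat. Alpha subunits of the Gi/o family inhibit the cyclase, and those of the Gq/11 family activate phospholipase C. The G12/13 family is the other family of alpha subunits. RGS proteins speed up the hydrolysis of GTP, mainly on Gi/o and Gq/11 alpha subunits.

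The end of the alpha subunit that meets the receptor sets these families apart. The stretches that follow are the last 11 codons and the stop codon of the alpha subunits of the Gi/o, Gq/11 and Gs families that were tested, Gnal aside, read from the GENCODE vM1 transcripts on NCBIM37 (mm9). Capitals mark the codon 4 places from the last residue, which encodes cysteine, the site that pertussis toxin modifies, in Gnai1, Gnai2, Gnai3 and Gnao1, tyrosine in Gnas, Gnaq and Gna11, and isoleucine in Gnaz. They are shown because the depots differed in the balance between the Gi/o and the Gs ends.
Gnai1 (chr5:17772837-17772872, minus strand): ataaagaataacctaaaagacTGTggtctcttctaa
Gnai2 (chr9:107517966-107518001, minus strand): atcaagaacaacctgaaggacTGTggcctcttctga
Gnai3 (chr3:107912340-107912375, minus strand): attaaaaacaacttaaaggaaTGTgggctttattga
Gnao1 (chr8:96490920-96490955, plus strand): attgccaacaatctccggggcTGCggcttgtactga
Gnaz (chr10:74477922-74477957, plus strand): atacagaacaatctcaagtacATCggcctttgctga
Gnaq (chr19:16457849-16457884, plus strand): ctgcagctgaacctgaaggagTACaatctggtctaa
Gna11 (chr10:80993540-80993575, minus strand): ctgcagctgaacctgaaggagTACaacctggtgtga
Gnas (chr2:174171854-174171889, plus strand): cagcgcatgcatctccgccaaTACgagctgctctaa
Each stretch lies within 1 exon. Gnai1 and Gnai2 share 30 of the 36 bases and all 11 residues, and Gnai1 and Gnai3 share 25 bases and 9 residues. Gnaq and Gna11 also share all 11 residues, whereas Gnas and Gnai1 have 2 of 11 in common.

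The depots were first compared in how many members they express. With a mean RPKM of at least 1, 28 of the 52 members were expressed in iWAT, 32 in eWAT and 24 for BAT, and the same 24 were at or above 1 in all 3 depots. Another 16 members were under 0.2 in every depot. These included the alpha subunits of photoreceptors (Gnat1, Gnat2), Gna14, Gnb3, Gng4, Gng8, Gng13 and Gngt1, and the RGS genes Rgs6, Rgs8, Rgs9, Rgs11, Rgs13, Rgs17, Rgs20 and Rgs22. No read was counted for Gngt1 or Rgs8 in any of the 18 samples. A count of 0 allows up to 3 reads in a sample, which is an RPKM of at most 0.038 for Gngt1 and 0.019 for Rgs8, for counting error only. The 12 remaining members, Gnal, Gna15, Gnaz, Gnb4, Gng2, Gng3, Rgs1, Rgs10, Rgs12, Rgs14, Rgs16 and Rgs18, reached a deposited RPKM of 0.2 in at least 1 depot but not of 1 in all 3.

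Gnas, on chromosome 2 (174109821 to 174172245, plus strand), is an imprinted gene with several alternative first exons. Its deposited RPKM had a lowest, median and highest value of 28.5, 31.8 and 37.2 in iWAT, 61.7, 69.6 and 77.2 in BAT, and 103, 123 and 149 in eWAT. All 6 BAT samples were above all 6 iWAT samples. The merged row is 20295 bp long, whereas the eWAT transcript with the most reads is 3903 bp long, which alone raises the eWAT value. Per kilobase of that transcript, Gnas stood at 165 ± 16.6 (SD, n = 6) in iWAT, 125 ± 16.6 in eWAT but 362 ± 32.4 in BAT. On this scale BAT was above every sample of the other depots, whereas in deposited RPKM every eWAT sample was above every BAT sample.

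The eWAT transcript rows of Gnas cover several first exons. The 7 transcript rows that run from the first exon of Gs alpha to the last exon held 89746 to 90318 reads over the 6 samples. The 3 rows confined to the most upstream first exon region, that of the neuroendocrine secretory protein, held 2 to 4 reads. The 4 rows confined to the next region, that of the extra-large form, held 1 read each, and the 3 rows confined to exon 1A held 237 to 429. Nearly all reads at the locus therefore fell on exons of the Gs alpha rows. The most-read row, the one of 3903 bp used above, is not among those 7. It starts at 174153269, in the exon 1A region, runs to the end of the gene and held 90643 reads. Rows with different first exons share the later exons, so these totals do not show which first exon was used. The merged Gnas row overlaps 2 rows on the opposite strand, and the library kit is not stated to mark strand, so reads of an antisense RNA would be counted with those of Gnas.

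Between iWAT and BAT, where both kinds of sample have merged rows, Gnas was lower in iWAT by a log2 fold change of -1.40 ± 0.09 (SE, adjusted p = 1.08e-08, edgeR). The 3 Gi alpha genes went the other way. Gnai1 (chromosome 5, 17770953 to 17866231, minus strand) had a lowest, median and highest RPKM of 110, 128 and 149 in iWAT and 9.31, 10.7 and 12.8 in BAT. The 2 ranges were far apart, with a log2 fold change of 3.29 ± 0.12 (9.80-fold, adjusted p = 6.38e-11). Gnai2 had values of 45.7, 48.8 and 70.3 in iWAT and 14.98, 18.4 and 27.8 in BAT (log2 fold change 1.162 ± 0.13, adjusted p = 2.83e-06). Gnai3 had values of 20.7, 26.1 and 28.0 in iWAT and 8.64, 10.1 and 12.2 in BAT (log2 fold change 1.03 ± 0.08, adjusted p = 7.99e-08). Neither gene's ranges overlapped. Of the summed level of Gnai1, Gnai2 and Gnai3 in deposited RPKM, Gnai1 made up 62.2% ± 4.52 (SD, n = 6) in iWAT and 27.1% ± 5.08 in BAT.

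Gnao1 encodes Go alpha, known best from neurons and endocrine cells, and was the member of the Gi/o family that was lower in iWAT. Its RPKM was 1.18, 1.74 and 1.88 in iWAT and 4.42, 5.01 and 5.54 in BAT, with no overlap (log2 fold change -1.88 ± 0.11, adjusted p = 3.32e-09). Gnaz, an alpha subunit that pertussis toxin does not modify, was higher in iWAT at a low level, with means of 0.230 and 0.0983 (log2 fold change 0.96, adjusted p = 0.00187), but did not pass with the mouse number as a replicate block (0.87, adjusted p = 0.0526). Gnal, the alpha subunit of olfactory neurons that also stimulates adenylyl cyclase, moved opposite to Gnas. Its RPKM was 1.25, 2.11 and 2.85 in iWAT and 0.436, 0.543 and 0.593 in BAT (log2 fold change 1.66 ± 0.18, adjusted p = 1.74e-06).

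**Figure D1:**
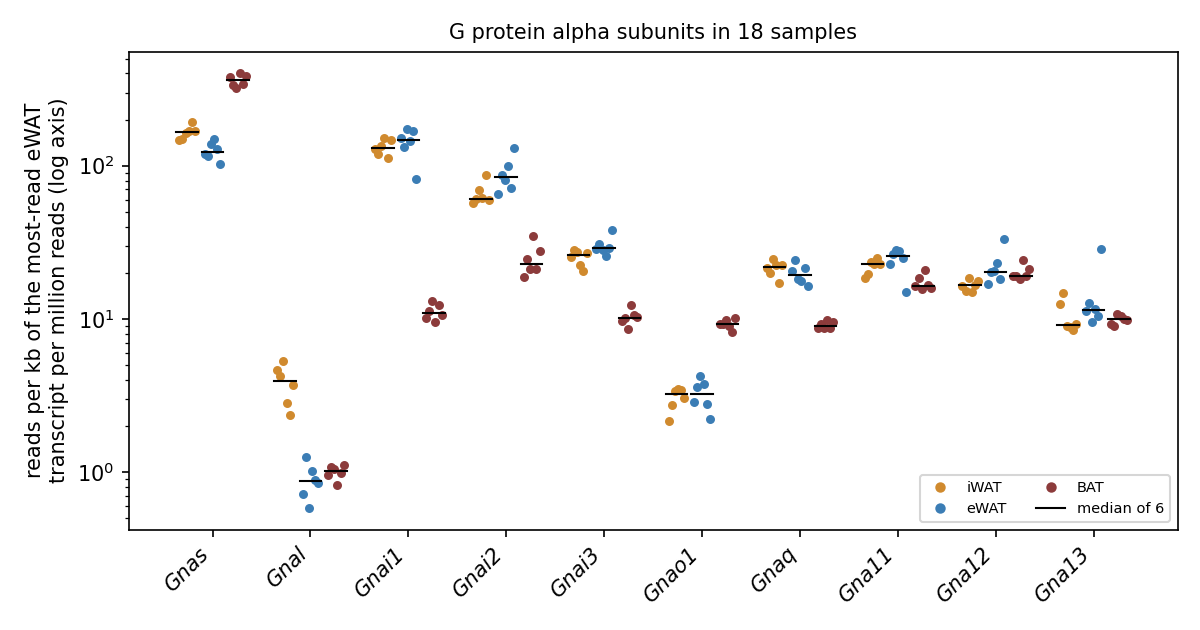
Level of 10 alpha subunits in each of the 18 samples, as reads per kilobase of the most-read eWAT transcript scaled like RPKM (log axis); points are samples and black lines the median of 6. Gnas is highest in BAT, with a mean of 362, and Gnai1 lowest there, with a mean of 11.1, while Gna12 and Gna13 have overlapping ranges in the 3 depots.

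Among the alpha subunits of the other families, Gnaq was higher in iWAT, with an RPKM of 13.2 to 18.95 against 6.66 to 7.56 in BAT (log2 fold change 0.96 ± 0.08, adjusted p = 6.08e-08). Its close relative Gna11 did not pass (0.08 ± 0.08, adjusted p = 0.345). Gna12 was lower in iWAT (-0.54 ± 0.07, adjusted p = 7.15e-06), with overlapping ranges of 14.9 to 18.5 and 18.3 to 24.2. Gna13 did not pass (adjusted p = 0.276). In all, 6 of the 11 tested alpha subunits were higher in iWAT and 3 were lower. Over the 36 tested members the counts were 14 and 11, beside 34% of the 19733 tested genes called higher and 33.6% called lower, so the number of members called was near that of genes at large. The median log2 fold change was 0.05 over the members and 0.01 over all tested genes.

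The alpha families took different shares of the summed alpha level. Per kilobase of the most-read eWAT transcript, this sum was 466 ± 24.5 (SD, n = 6) in iWAT, 471 ± 27.2 for eWAT and 475 ± 39.4 in BAT. The Gs family (Gnas and Gnal) made up 36.2% ± 1.96 of it in iWAT, 26.7% ± 2.27 in eWAT but 76.4% ± 1.49 in BAT. The Gi/o family made up 48.6% ± 1.37, 56.1% ± 1.05 and 11.7% ± 0.930. The lowest share of Gs in a BAT sample, 75.2%, was above the highest in an adipocyte sample, 40.2%.

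The alpha sum and these shares depend on the row length used, and the order of iWAT and eWAT in the shares does so too. Deposited RPKM put the mean alpha sum of BAT at 167, against 304 for iWAT and 471 for eWAT. Per kilobase of the eWAT transcript with the highest RPKM, eWAT had the lowest mean sum, 680, against 1108 for iWAT and 1194 for BAT. The sums of the depots were thus close only per kilobase of the most-read transcript. In deposited RPKM the Gs family made up 11.1% in iWAT, 26.7% in eWAT but 41.9% in BAT, and per kilobase of the eWAT transcript with the highest RPKM it made up 40.3%, 45.4% and 81.5%. BAT had the highest share of Gs and the lowest share of Gi/o on all 3 scales. The ratio of Gi/o to Gs was 6.22 in iWAT and 0.659 in BAT in deposited RPKM, and 1.35 and 0.153 per kilobase of the most-read transcript. These sums describe messenger RNA of the listed genes and were not tested.

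**Figure D2:**
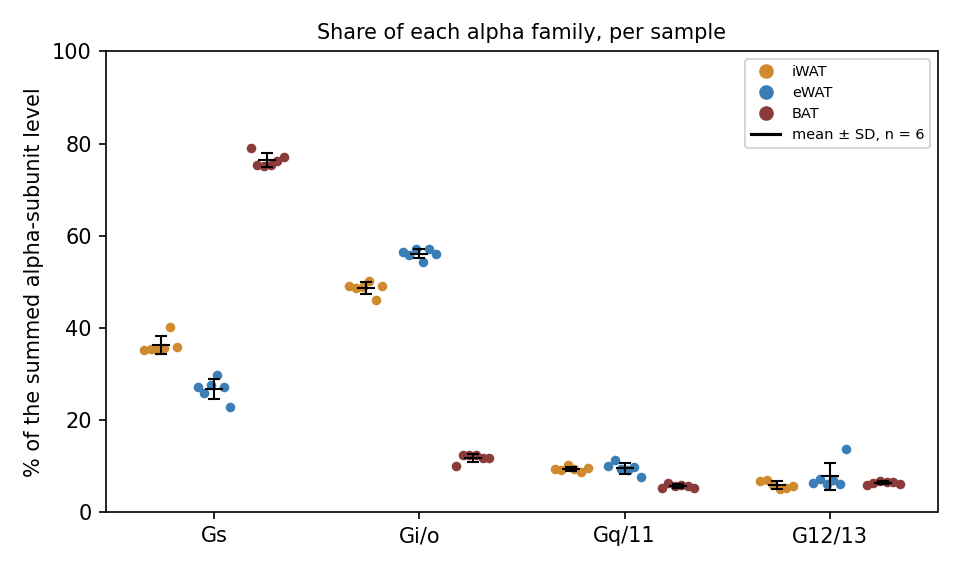
Share of each alpha family in the summed alpha-subunit level of a sample, per kilobase of the most-read eWAT transcript; points are samples, and black marks give mean ± SD of 6. In BAT the Gs family takes 75.2% to 79.1% of the sum, and in both adipocyte depots the Gi/o family takes 46.0% to 57.1%.

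The beta subunits bind gamma as a permanent pair. Gnb2 and Gnb1 had the highest levels of the 5 in each depot. Gnb2 had an RPKM of 55.6, 61.2 and 74.5 (lowest, median and highest) in iWAT, 50.9, 57.7 and 73.8 in eWAT, with 45.5, 50.7 and 58.2 in BAT. Gnb1 had values of 44.7, 49.1 and 55.9 in iWAT, 47.5, 55.2 and 65.4 in eWAT, with 39.9, 41.3 and 52.4 in BAT. The ranges of the depots overlapped for both genes, and the log2 fold changes of iWAT against BAT, 0.02 ± 0.08 for Gnb2 and -0.05 ± 0.07 for Gnb1, did not pass (adjusted p = 0.871 and 0.57). In deposited RPKM these 2 genes made up 88.9% ± 0.478 (SD, n = 6) of the beta sum in iWAT, 84.3% ± 2.93 for eWAT and 94.3% ± 0.899 in BAT.

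Gnb5 is the atypical beta subunit that pairs with RGS proteins of the R7 group instead of a gamma subunit. It was higher in iWAT, with an RPKM of 11.998, 13.4 and 15.9 against 3.87, 4.96 and 5.74 in BAT (log2 fold change 1.17 ± 0.12, adjusted p = 1.22e-06). Its partner Rgs7, a member of the R7 group, was lower in iWAT, with 1.62, 2.34 and 2.64 against 3.97, 4.61 and 5.68 (-1.30 ± 0.14, adjusted p = 1.5e-06). Rgs6 and Rgs9 of that group were also lower in iWAT (-2.11 ± 0.45, adjusted p = 0.000838, and -2.46 ± 0.37, adjusted p = 4.43e-05), but at mean RPKM values of 0.0362 and 0.00938 in iWAT and of 0.14 and 0.0455 in BAT. Rgs9, at 0 to 6 reads per iWAT sample and 13 to 27 per BAT sample, met the read filter through BAT alone. Rgs6, at 1 to 15 and 9 to 33 reads, met it mostly through BAT, so little weight rests on these 2 calls. The group's membrane anchor Rgs7bp, from the list of other pathway genes, was at a mean of 5.37 in iWAT and 0.105 in BAT (5.42 ± 0.19, adjusted p = 3.18e-11), and the related anchor Rgs9bp was at 0.0127 and 0.175. The subunit Gnb5, its partner Rgs7 and the anchor Rgs7bp thus did not change in 1 direction between these depots.

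The gamma subunits anchor the pair to the membrane through a lipid on their C-terminus. The last residue decides which lipid is used: leucine goes with the longer geranylgeranyl group and serine with the shorter farnesyl group. The last 9 codons and the stop codon of the gamma subunits that were expressed are given next, with the codon of the last residue in capitals, because 2 of the 8 end in serine.
Gng2 (chr14:20695029-20695058, minus strand): gagaagaagttcttctgcgccatcCTTtaa
Gng3 (chr19:8912633-8912662, minus strand): gagaagaagttcttctgtgcgctcCTCtga
Gng5 (chr3:146166320-146166349, plus strand): agaccccagaaagtctgctcctttTTGtag
Gng7 (chr10:80414366-80414395, minus strand): aaagacaaaaagccttgcataattCTCtag
Gng10 (chr4:59052195-59052224, plus strand): cgggagcccaggtcctgtgctctaCTTtga
Gng12 (chr6:66967554-66967583, plus strand): aaggataagaagacctgcatcatcTTAtag
Gng11 (chr6:3958131-3958160, plus strand): aaagaaaagggcagctgtgtcattTCAtaa
Gngt2 (chr11:95706893-95706922, plus strand): aaggagaaaggcacttgtgtgctaAGCtga
The codon in capitals encodes leucine in the first 6 and serine in Gng11 and Gngt2. These stretches are on NCBIM37 (mm9), from GENCODE vM1.

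Gng2, the gamma subunit most often used in studies of beta-gamma signaling, had the largest log2 fold change of the 8 tested gamma subunits between iWAT and BAT. Its RPKM was 3.44, 4.204 and 5.92 in iWAT, 3.68, 5.03 and 11.3 in eWAT, with 0.675, 0.783 and 1.14 in BAT. Every adipocyte sample was above every BAT sample (iWAT against BAT, log2 fold change 2.14 ± 0.16, adjusted p = 4.22e-08). Gng10 and Gng7 were higher in iWAT by 0.67 ± 0.09 (adjusted p = 2.26e-05) and 0.54 ± 0.11 (adjusted p = 0.000473), and their ranges did not overlap those of BAT. Gng12, Gngt2 and Gng5 were lower in iWAT, with log2 fold changes of -0.43 ± 0.08, -0.69 ± 0.14 and -0.30 ± 0.11 (adjusted p = 0.000419, 0.000737 and 0.0229), and their ranges overlapped. The call for Gng5 was lost without TMM scaling factors, in both limma fits and without iWAT mouse 7 or 11.

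Gng12, Gng11 and Gng10 had the highest means of the gamma subunits in iWAT and BAT. The RPKM of Gng12 was 12.8, 14.02 and 14.7 in iWAT, 14.1, 16.6 and 21.6 in eWAT, with 14.1, 15.7 and 16.8 in BAT. That of Gng11 was 5.42, 7.85 and 33.6 in iWAT, 10.1, 16.2 and 30.1 in eWAT, with 11.7, 14.5 and 16.9 in BAT. Gng11 did not pass between iWAT and BAT (log2 fold change -0.43, adjusted p = 0.317), but was called lower in iWAT with the replicate block (-1.15, adjusted p = 0.00543). The highest values of Gng11 came from iWAT mouse 14 and eWAT mouse 8, the 2 adipocyte samples with the highest endothelial sums (308 and 323, against 54.7 to 135 in the other iWAT and 142 to 276 in the other eWAT samples). The part of endothelial RNA in these levels was not tested. In eWAT the highest mean was that of Gng5, at an RPKM of 17.0, 19.3 and 22.0, against 2.69, 3.62 and 4.12 in iWAT and 3.09, 3.54 and 3.90 in BAT. Its merged row is 2738 bp long and its eWAT transcript 535 bp, and per kilobase of that transcript the means were 17.5, 19.3 and 17.97 in iWAT, eWAT and BAT, with overlapping ranges.

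**Figure D3:**
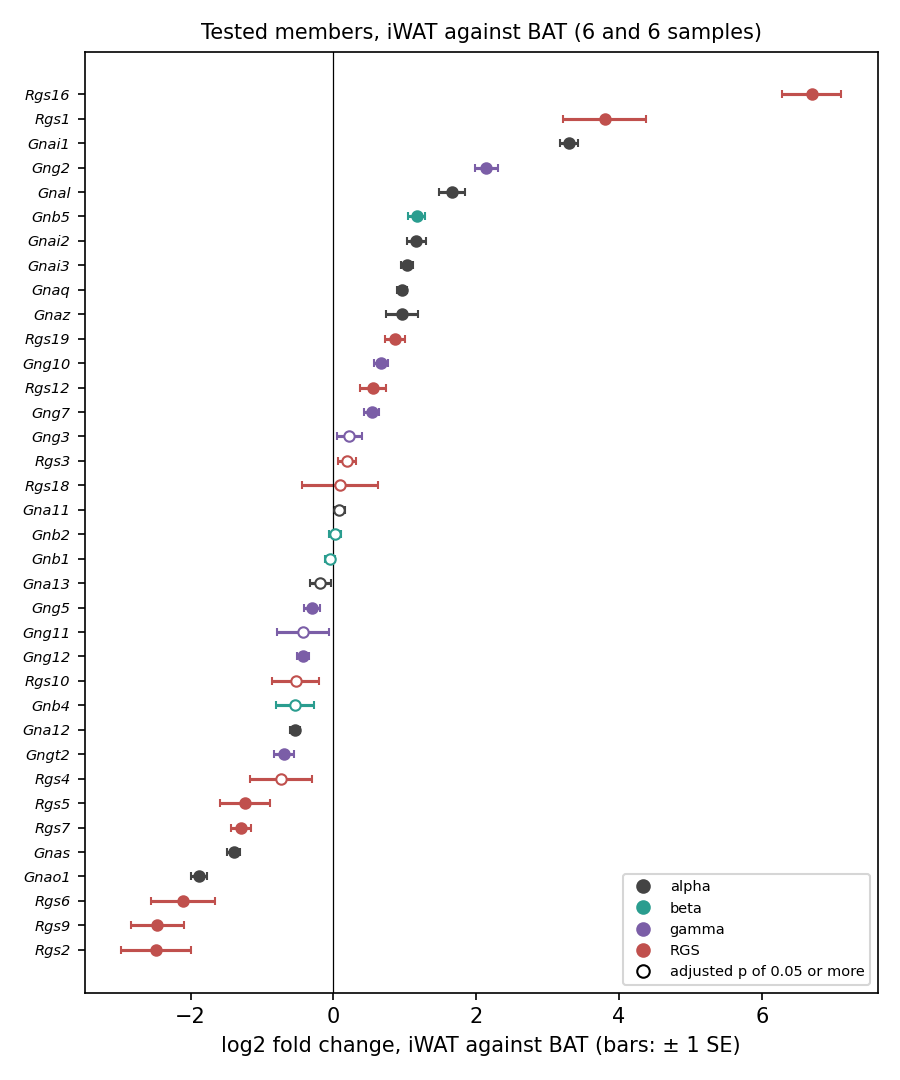
Log2 fold change of the 36 tested members between iWAT and BAT, with bars of 1 SE; filled points passed an adjusted p under 0.05, and colours mark the class. Rgs16 stands apart at 6.70 and Rgs2 is lowest at -2.48, while Gnb1 and Gnb2 lie next to 0.

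Of the 20 RGS genes, 13 were tested between iWAT and BAT, and 4 were higher and 5 lower in iWAT, beside 34% and 33.6% of all tested genes. Rgs16 (chromosome 1, 155587479 to 155592598, plus strand), a small RGS protein of the R4 group that acts on Gi/o and Gq/11 alpha subunits, differed most. Its RPKM was 5.15, 7.15 and 15.6 in iWAT and 5.87, 9.45 and 14.3 in eWAT, but 0.025, 0.059 and 0.144 in BAT, where 2 to 10 reads were counted per sample. The log2 fold change was 6.70 ± 0.41 (adjusted p = 5.47e-09) for iWAT against BAT and 6.95 ± 0.42 (adjusted p = 2.52e-11) for eWAT against BAT. Rgs16 met the read filter through the adipocyte samples, at 316 to 935 reads per iWAT sample and 449 to 1067 per eWAT sample. The size of both fold changes therefore rests on few BAT reads. The 2 adipocyte depots did not differ detectably in Rgs16 (0.16 ± 0.29, adjusted p = 0.679).

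The 9 immediate-early genes listed, which respond within minutes to stress and to handling, moved with the same samples. Their summed RPKM was 2715 to 3991 in iWAT, 2138 to 2952 in eWAT and 34.0 to 103 in BAT. Fos was at a mean of 558 in iWAT, 498 in eWAT but only 1.39 in BAT. As only the adipocytes were digested, the part of the digestion in the level of Rgs16 cannot be told apart from that of the depot.

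Rgs2 (chromosome 1, 145846468 to 145851291, minus strand), which acts mainly on Gq alpha and also limits adenylyl cyclase, had its highest values in BAT. Its RPKM was 54.3 and 45.0 in the BAT samples of mice 7 and 6, 21.6 in mouse 12, and 10.5, 9.51 and 8.22 in mice 8, 13 and 11. In iWAT it was 3.36, 4.68 and 8.68 (lowest, median and highest), and the ranges met, since the lowest BAT value lay under the highest iWAT value. The log2 fold change of iWAT against BAT was -2.48 ± 0.49 (adjusted p = 0.000477). In eWAT it was 1.99 to 8.48 in 5 samples and 33.4 in mouse 15.

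The region around the Rgs2 start is shown because the gene is known to respond to cyclic AMP. It holds 2 copies of TGACG, the core of the cyclic AMP response element, counted on both strands, which are in capitals in this stretch (RefSeq, GRCm38.p6, chr1:144004100-144004399, minus strand).
Rgs2: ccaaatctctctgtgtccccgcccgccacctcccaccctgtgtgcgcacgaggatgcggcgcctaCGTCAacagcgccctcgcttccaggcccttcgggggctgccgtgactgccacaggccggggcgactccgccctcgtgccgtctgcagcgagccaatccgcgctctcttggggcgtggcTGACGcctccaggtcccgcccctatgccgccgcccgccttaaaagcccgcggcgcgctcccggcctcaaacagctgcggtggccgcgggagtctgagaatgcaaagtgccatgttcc
Of all 32851 promoter windows of this length, 20.8% hold these letters on either strand. Among the members, 10 genes have a window with them: Gnai3, Gnas, Gnb1, Gnb2, Gng4, Gng7, Rgs2, Rgs4, Rgs8 and Rgs12. The 20.8% is a share of windows (32851 for 27025 genes), so it cannot be set directly beside these 10 genes. No window of the 52 members holds the full element TGACGTCA. Only 1.79% of all windows hold it, so its absence from so few says little. A match is a run of letters, and binding was not measured.

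Rgs5, a marker of pericytes, was the RGS gene with the highest mean in each depot. Its RPKM was 14.1, 30.6 and 87.4 in iWAT, 45.0, 57.0 and 125 in eWAT, with 52.1, 71.7 and 92.7 in BAT. The iWAT level was under that of BAT (log2 fold change -1.24 ± 0.35, adjusted p = 0.00648), with overlapping ranges. It made up 50.1% ± 15.4 (SD, n = 6) of the summed RGS level in deposited RPKM in iWAT, 51.3% ± 15.1 for eWAT and 65.6% in BAT. The highest values in iWAT and eWAT again came from mouse 14 and mouse 8, and so did those of Rgs4, at 5.26 and 8.17. The 8 pericyte and smooth muscle markers summed to 48.3 in iWAT mouse 14 (27.3 to 58.2 in all 6) and to 108 in eWAT mouse 8 (57.3 to 133), so these samples were not the highest for that list. The part of vessel cells in the Rgs5 level was not tested.

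Rgs19, which acts on Gi alpha subunits, had the higher level in iWAT, with an RPKM of 4.26, 7.21 and 7.75 against 2.52, 2.83 and 3.68 in BAT (log2 fold change 0.86 ± 0.14, adjusted p = 8.62e-05) and no overlap. Rgs1, known from leukocytes, was at 0.247, 0.64 and 1.55 in iWAT and at 0.005, 0.027 and 0.135 in BAT (3.798 ± 0.58, adjusted p = 4.9e-05). Rgs1 met the read filter through iWAT, at 40 to 248 reads per iWAT sample and 1 to 25 per BAT sample. Its highest iWAT values, 1.55 and 0.94, came from mice 11 and 7, which also had the highest macrophage sums of iWAT (106 and 180, against 32.2 to 45.0 in the other 4), and the part of macrophages in this level was not tested. Rgs12 passed with overlapping ranges (0.55 ± 0.19, adjusted p = 0.0174), but not without BAT mouse 6 (0.45, adjusted p = 0.051) or with the replicate block (0.36, adjusted p = 0.143). Rgs3, Rgs4 and Rgs10 did not pass (adjusted p = 0.21, 0.152 and 0.17), but with the replicate block Rgs3 was called higher (0.29, adjusted p = 0.0163) and Rgs4 lower in iWAT (-1.36, adjusted p = 0.00678).

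The comparisons with eWAT were read from 2 fits, because most merged rows are longer than the transcript rows. With the row length in the fit, the median log2 fold change of all 18383 tested genes was 0.35 for eWAT against iWAT, and without it -0.04. A transcript row can hold no more than the reads of its gene, so the fit without length gives eWAT the lower of the 2 values wherever the merged row is longer. A member was taken as higher or lower in eWAT only where both fits called it in that direction. Reads that fall only on other transcripts of a gene are left out of its eWAT row in both fits. This can make the eWAT value too low, so the rule guards a lower call less than a higher one.

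Between eWAT and iWAT, 7 of the 37 tested members were higher in eWAT in both fits, beside 10.6% of all tested genes, and 1 was lower, beside 5.62%. Of the 7, 6 were RGS genes: Rgs1, Rgs10, Rgs12, Rgs14, Rgs18 and Rgs9. The other was Gnb4, and the member that was lower was Gnal. Rgs14 and Rgs18 met the read filter mostly through eWAT, the depot in which they were called higher. Rgs18 had 25 to 410 reads per eWAT sample and 2 to 28 per iWAT sample. Rgs14 had 8 to 131 and 1 to 12, and Rgs9, at 0 to 6 in iWAT, met the filter through the other depots. Little weight therefore rests on the calls for Rgs9, Rgs14 and Rgs18. With the row length alone 17 members were called higher, beside 44.4% of all genes, and 10 of these were not called in that direction without it. Among those, Gnas went from 1.93 to -0.45 and Rgs3 from 0.82 to -0.68, and Gng5 went from 2.45 to 0.09. Rgs4 also passed with the row length only (1.23 and 1.15, adjusted p = 0.022 and 0.0543), at an RPKM of 0.549, 1.58 and 5.26 in iWAT and 2.65, 4.44 and 8.17 in eWAT.

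**Figure D4:**
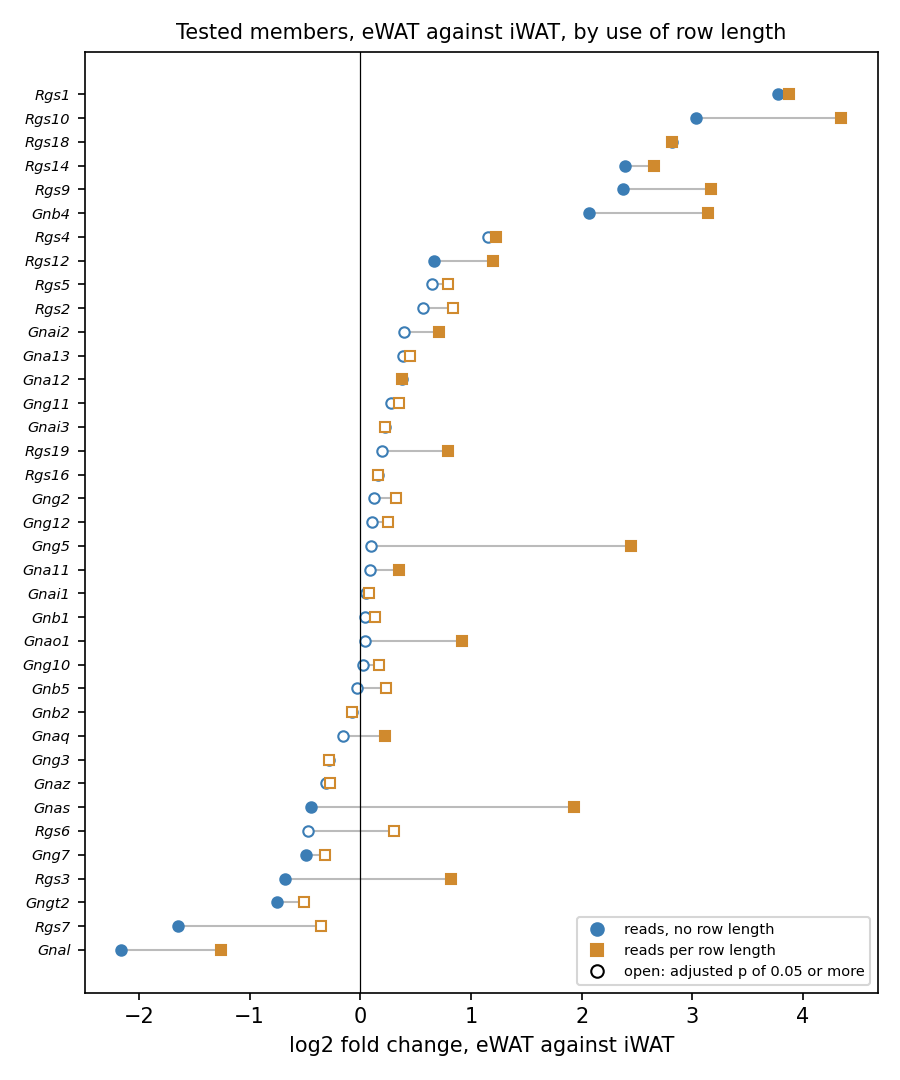
Log2 fold change of the 37 tested members between eWAT and iWAT, from a fit without row length (circles) and from a fit with it (squares); filled symbols passed an adjusted p under 0.05, and grey lines join the 2 values of a gene. Gnas, Gng5 and Rgs3 move most between the fits, while Rgs1, Rgs18 and Rgs16 hardly move.

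Gnb4 (chromosome 3, 32479254 to 32515512, minus strand) had the lowest adjusted p, with the row length, of the members called in both fits. Its deposited RPKM was 0.320, 0.475 and 1.13 in iWAT, 0.543, 0.626 and 0.867 in BAT and 4.15, 5.14 and 6.16 in eWAT. In reads, 745 to 1122 were counted in each eWAT sample on a single transcript and 104 to 455 in each iWAT sample on the whole gene, so the ranges did not overlap on either scale. The log2 fold change of eWAT against iWAT was 3.14 ± 0.26 with the row length (adjusted p = 6.17e-09) and 2.06 ± 0.25 without it (adjusted p = 1.04e-05). It was 3.12 and 2.04 when the samples of eWAT mouse 15 and BAT mouse 12 were left out. Against BAT, Gnb4 was higher in eWAT by 2.71 ± 0.26 and 1.63 ± 0.25 (adjusted p = 1.29e-08 and 9.82e-06), whereas iWAT against BAT did not pass (-0.53, adjusted p = 0.0896), other than with the replicate block (-0.91, adjusted p = 0.0101). The highest iWAT value, 1.13, was again that of mouse 14.

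Gnal was lower in eWAT, with an RPKM of 0.584, 0.868 and 1.24 against 1.25, 2.11 and 2.85 in iWAT. The highest eWAT value and the lowest iWAT value were 1.245 and 1.254, and thus nearly met. The log2 fold change was -1.26 ± 0.19 with the row length (adjusted p = 1.32e-05) and -2.16 ± 0.19 without it (adjusted p = 2.05e-07). Between eWAT and BAT the 2 fits gave Gnal 0.50 and -0.41, and no direction was taken.

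Of the RGS genes that were higher in eWAT, 4 had their highest value in mouse 15, the sample with the most macrophage RNA. Rgs1 had an RPKM of 2.05 to 7.04 in 5 eWAT samples and 43.2 in mouse 15, against at most 1.55 in iWAT, and the medians were 4.61 and 0.64. Rgs10, found in macrophages, platelets and lymphocytes, was at 2.13 to 5.87 and 34.7, against at most 0.701 in iWAT, and the medians were 2.99 and 0.418. In both genes every eWAT sample, mouse 15 or not, was above every iWAT sample. Rgs18, known from platelets and other blood cells, was at 0.425 to 0.622 and 6.16, against at most 0.601, and the ranges overlapped. Rgs14 was at 0.128 to 0.309 and 1.70, against at most 0.184, with overlap as well. In mouse 15 the 5 platelet markers also had their highest sum, 51.0 against 4.17 to 13.3 in the other eWAT samples.

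Leaving out mouse 15 and BAT mouse 12 changed some of these calls. Rgs1 kept a log2 fold change of 2.42 with the row length and 2.32 without it (adjusted p = 0.00019 and 0.0012), down from 3.87 and 3.77. Rgs10 had 2.87 and 1.56 (adjusted p = 2.66e-06 and 0.004), down from 4.35 and 3.03. Rgs18 had 1.24 in both fits (adjusted p = 0.0344 and 0.0631) and Rgs14 1.42 and 1.15 (adjusted p = 0.0549 and 0.176), so neither passed in both. With the replicate block and all samples Rgs14 did not pass either (1.93, adjusted p = 0.0645). The other 5 eWAT samples had macrophage sums of 160 to 523, against 32.2 to 180 in iWAT, and the part of macrophages in the levels of Rgs1 and Rgs10 was not tested. Without these 2 samples, 5 members were higher and 2 lower in eWAT in both fits, the added one being Gngt2 (-0.81 and -1.06, adjusted p = 0.00342 and 0.00151).

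Rgs12, a large RGS protein of the R12 group that also holds a PDZ domain, was higher in eWAT in both fits. Its RPKM was 0.568, 0.707 and 1.10 in iWAT and 1.25, 1.80 and 2.76 in eWAT, so the ranges did not overlap, and mouse 15 had the lowest of the eWAT values. The highest values, 1.10 in iWAT mouse 14 and 2.76 in eWAT mouse 8, were those of the samples with the highest endothelial sums (308 and 323), and the median endothelial sum was 89.7 in iWAT and 176 in eWAT. The part of endothelial RNA in the Rgs12 level was not tested. The log2 fold change was 1.20 ± 0.20 with the row length and 0.67 ± 0.20 without it (adjusted p = 5.19e-05 and 0.0191). Without the 2 samples it was 1.27 and 0.74 (adjusted p = 3.76e-05 and 0.0128). Rgs9 was called as well, but at 4 to 47 reads per eWAT sample and at most 6 per iWAT sample. The epididymis markers were highest in eWAT mouse 14 (sum 76.4), which with mouse 15 also had the highest reads of Rgs9, 47 and 45 against 4 to 15 in the other eWAT samples.

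**Figure D5:**
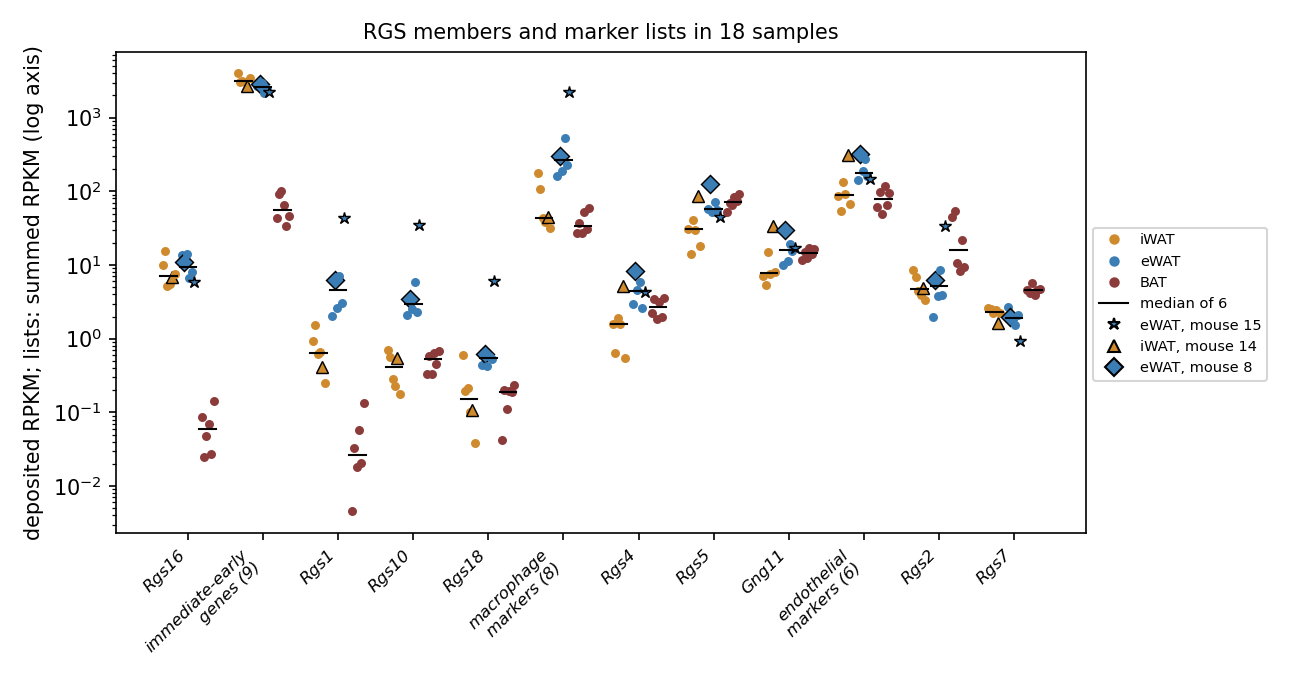
Deposited RPKM of 9 members and the summed RPKM of 3 marker lists in each sample (log axis); points are samples, black lines the median of 6, and 3 samples have their own symbols. The star (eWAT mouse 15) is the highest eWAT sample for Rgs1, Rgs10, Rgs18, Rgs2 and the macrophage list, and the triangle (iWAT mouse 14) is the highest iWAT sample for Rgs4, Rgs5, Gng11 and the endothelial list.

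None of Gnai1, Gnai2 and Gnai3 was called in both fits between the white depots. Gnai1 was at 82.1, 148 and 173 in eWAT (lowest, median and highest), with the lowest value in mouse 15 and 132 to 173 in the others, against 110 to 149 in iWAT. Its log2 fold change was 0.08 ± 0.15 with the row length and 0.05 ± 0.15 without it (adjusted p = 0.686 and 0.843). Gnai3 also did not pass (0.22 ± 0.10 in both fits, adjusted p = 0.0781 and 0.12). Gnai2 passed with the row length only (0.71 and 0.40, adjusted p = 0.00162 and 0.0947), and its highest value, 130, was that of mouse 15. Gnas was lower in eWAT without the row length (-0.45 ± 0.10, adjusted p = 0.00389) and higher with it, so no direction was taken.

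Between eWAT and BAT, 17 members were higher in eWAT in both fits, beside 40.1% of the 18383 tested genes, and 5 were lower, beside 21.2%. As these values share the BAT samples with those of iWAT, the 2 comparisons are not independent. The 17 were Gnai1, Gnai2, Gnai3, Gnaq, Gna11, Gnaz, Gnb4, Gnb5, Gng2, Gng10, Rgs1, Rgs10, Rgs12, Rgs14, Rgs16, Rgs18 and Rgs19. Of these, Rgs1, Rgs14, Rgs16 and Rgs18 had 1 to 25, 1 to 12, 2 to 10 and 3 to 14 reads per BAT sample. They met the read filter mostly through the adipocyte samples. The 5 were Gnao1, Gngt2, Rgs2, Rgs6 and Rgs7. With the row length and the eWAT transcript of highest RPKM, Gngt2, Rgs2 and Rgs6 did not pass (-0.09, -0.50 and -1.12, adjusted p = 0.726, 0.464 and 0.0523). Gnao1 and Rgs7 kept their call. Rgs6 had only 1 to 8 reads per eWAT sample and 9 to 33 per BAT sample. Gnai1 was higher by 3.47 ± 0.16 with the row length and 3.44 ± 0.16 without it (adjusted p = 6.75e-13 and 1.64e-12). Gnao1 was lower by -0.87 ± 0.14 and -1.75 ± 0.14 (adjusted p = 1.03e-05 and 1.91e-09), and Rgs7 by -1.56 ± 0.18 and -2.85 ± 0.19 (adjusted p = 3.09e-07 and 2.14e-10). Gnas was called higher with the row length and lower without it (0.63 ± 0.10 and -1.75 ± 0.11). Without eWAT mouse 15 and BAT mouse 12, 16 members were higher and 6 lower in both fits: Rgs14 was no longer called (1.501 and 1.24, adjusted p = 0.0378 and 0.0887), Rgs6 was too low to be tested, and Gna12 and Gng12 were added as lower. With the replicate block and the row length Rgs14, Rgs18 and Rgs2 did not pass (adjusted p = 0.0788, 0.0637 and 0.0712). With TMM factors from all symbols and the row length, Gna11 and Gnaz did not pass (0.022 and 0.27, adjusted p = 0.87 and 0.305). The call for Rgs2 (-1.55 and -1.82, adjusted p = 0.0312 and 0.0156) was lost with the row length when BAT mouse 6 or 7 or any eWAT sample other than mouse 15 was left out (-1.24 to -1.4998, adjusted p = 0.056 to 0.0831), and was -2.69 and -2.95 without eWAT mouse 15 and BAT mouse 12.

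Other genes that act beside the G proteins were taken from a list of 28, of which 27 were found in the files. Between iWAT and BAT, 7 of the 23 tested were higher and 11 lower in iWAT, beside 34% and 33.6% of all tested genes, or 4 and 10 with the replicate block. Plcb1, a phospholipase C that Gq alpha activates, was at a mean RPKM of 4.37 in iWAT and 0.849 in BAT (log2 fold change 2.097 ± 0.12, adjusted p = 2.74e-09), whereas Plcb3 and Plcb4 were lower in iWAT (-0.36 ± 0.10 and -0.82 ± 0.11, adjusted p = 0.00527 and 1.68e-05). Pik3cb, a phosphoinositide 3-kinase that beta-gamma pairs can activate, was at 9.27 and 2.19 (1.81 ± 0.14, adjusted p = 4.08e-08). Rap1gap, which binds Gi/o and Gz alpha subunits and turns off the small G protein Rap1, was at 0.0432 and 2.30 (-6.01 ± 0.27, adjusted p = 2.69e-10). Nucb1, a calcium-binding protein that binds Gi alpha, was at 17.3 and 7.58 (0.93 ± 0.07, adjusted p = 2.61e-08).

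Between eWAT and iWAT, 7 of the 23 pathway genes were higher and 1 lower in both fits, beside 10.6% and 5.62% of all tested genes. With eWAT mouse 15 and BAT mouse 12 left out 5 of 22 were higher and 1 lower, Rgs7bp in place of Plcb3. Pik3r5 and Pik3cg, the regulatory and catalytic parts of the leukocyte kinase that beta-gamma pairs activate, were at 4.76 and 0.83 in eWAT and 0.441 and 0.2 in iWAT. The log2 fold change of Pik3r5 was 3.43 ± 0.63 with the row length and 3.09 ± 0.63 without it (adjusted p = 0.00015 and 0.00145). The 4 potassium channel genes of the list that beta-gamma pairs open, Kcnj3, Kcnj5, Kcnj6 and Kcnj9, were too low to be tested, with means of at most 0.02.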

How the data were processed

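Per the labels, total RNA of 6 iWAT, 6 eWAT and 6 BAT samples was sequenced after library preparation with the NEBNext Ultra RNA kit on a HiSeq instrument and processed with the Genomatix Genome Analyzer on mm9. The submitters' processing notes name cutadapt 1.16 and HISAT2 2.1.0. The way a read was assigned to a row is not given in the sources used here. The authors deposited read counts per row, which are not normalized, and RPKM values per row, which equal the count over the row length and over the reads of the sample. No molecular identifiers were used, and floors therefore cover counting error alone. Counts of iWAT and BAT were on merged gene rows (53445) and those of eWAT on transcript rows (189660).

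The 52 members were matched by symbol. The members and gene lists were chosen with earlier results of these data known. Each count table was tested with edgeR (version 4.0.16, R version 4.3.3, glmQLFit and glmQLFTest, TMM) on rows in which 6 or more samples had 10 or more reads, with Benjamini-Hochberg adjustment over all rows and a threshold of 0.05. The fit of iWAT against BAT used the merged rows of 12 samples. Fits with eWAT used all 18 samples, 1 row per symbol, with row length in the offset, and TMM factors from the 27301 rows common to both kinds of file. A fit without row length was chosen after the data were seen. Replicates were numbered as in the titles, which do not say whether a number marks an animal. As the labels name no separate pools or days, p-values measure the spread between these samples. The same numbers did not deviate together on average across depots (mean r of 0.029 over 4 pairs of iWAT and BAT, -0.037 over 5 pairs of iWAT and eWAT, and -0.03 over 4 pairs of BAT and eWAT), and no block was used. Between iWAT and eWAT, r ran from -0.33 to 0.19 for the same number and from -0.44 to 0.51 for different ones. So few pairs cannot show that pairing is absent.

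Members named with the lowest, median and highest value were Gnas, the member with the highest mean in each class and depot, and those called with a log2 fold change of at least 1 and a mean of 1 RPKM or more where they were higher, in iWAT against BAT and eWAT against iWAT; others named by value are low or were chosen after their values were seen. On simulated counts, the fit of iWAT against BAT called 82 of 100 genes changed by a log2 of 1, 98 of 100 changed by 2 and 8 of 19533 unchanged. Of 100 genes changed by a log2 of 1, the fits with row length called 60 for eWAT against BAT and 66 for eWAT against iWAT. The simulated counts were built with the row lengths and TMM factors that the fits then used. They therefore cannot show whether the row length suits the real eWAT counts. DESeq2 (version 1.42.0) and limma (version 3.58.1, pseudocounts 0.1 and 1) were alternatives, with other normalization, filters, rows and samples. Tables were made with Python (version 3.11.15) and pandas (version 2.3.3). Of the members, 23 overlap a row on the opposite strand.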

Additional observations from a re-analysis of the deposited data

Results flagged for a closer look

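In 84 sets of 6 samples (members whose mean in a depot was 1 RPKM or more), the gap between the most distant sample and its neighbour was compared with the range of the 6, and 12 sets were past the 95% critical value of Dixon's ratio for 6 values. Chance alone flags about 1 set in 20. In eWAT, 7 of the 12 were high values of mouse 15, the sample with the most macrophage RNA: Gna13 at an RPKM of 28.4 (9.52 to 12.6 in the others), Gng2 at 11.3 (3.68 to 5.04), Rgs1 at 43.2 (2.05 to 7.04), Rgs2 at 33.4 (1.99 to 8.48), Rgs10 at 34.7 (2.13 to 5.87), Rgs18 at 6.16 (0.425 to 0.622) and Rgs19 at 15.8 (9.67 to 11.8). The eWAT sample of mouse 8 was high for Rgs5, at 125 (45.0 to 72.7 in the others). In iWAT, mouse 14 was high for Gng11 at 33.6 (5.42 to 14.9), Rgs4 at 5.26 (0.549 to 1.90) and Rgs5 at 87.4 (14.1 to 41.2). In BAT, mouse 11 was high for Gnb1 at 52.4 (39.9 to 42.2).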

How the results depend on the processing

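In iWAT against BAT, 14 members were called higher and 11 lower. The counts were 13 to 14 and 9 to 13 when 1 sample was left out, and 8 and 7 with a fold change of at least 2. With a replicate block on the mouse number they were 13 and 14 (4 numbers shared). For eWAT against BAT the counts with the row length were 21 and 5, beside 56.5% and 21.3% of all tested genes, or 19 and 4 with the replicate block. For eWAT against iWAT they were 17 and 1, beside 44.4% and 6.34%, or 14 and 1 with the block. The few same-numbered samples did not deviate together on average, which cannot show that pairing is absent, and the block is given as an alternative. Leaving out 1 sample gave 20 to 22 and 3 to 6 for eWAT against BAT, and 15 to 19 and 1 to 2 for eWAT against iWAT. The members at a mean RPKM of at least 1 numbered 28 to 28 in iWAT, 31 to 32 in eWAT and 24 to 25 in BAT. A fold change of at least 2 left 10 higher in eWAT against iWAT.

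In eWAT against BAT, 2 were higher and 0 lower on the shared rows alone (4 members have one, that of Gnb4 being a second row on the opposite strand, so fewer were tested), 11 were lower with TMM factors from all symbols, 2 were lower with the highest-RPKM transcript, and 8 were lower with 2 libraries left out and no row length. In eWAT against iWAT, 2 were higher and 0 lower on the shared rows, 8 lower with TMM factors from all symbols and 4 lower with the longest transcript. Without row length 7 were higher and 6 lower, with 2 libraries left out 2 were lower, and with both changes 5 were higher and 6 lower. The cause was not tested, other than by the construction of each setting.

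The direction turned for these members, with log2 fold changes given without row length and then also without the 2 libraries. Against BAT they were Gnal (-0.41 and -0.46, and -0.017 with TMM factors from all symbols), Gnas (-1.75 and -1.77), Gng5 (-0.11 and -0.22) and Rgs3 (-0.40 and -0.37). Against iWAT they were Gnaq (-0.16 and -0.13, and -0.17 with TMM factors from all symbols), Gnas (-0.45 and -0.42) and Rgs3 (-0.68 and -0.59), and, with TMM factors from all symbols alone, Gna11 (-0.0352) and Gna12 (-0.0256). With the longest transcript Gnas was at -15.57 against BAT and -14.27 against iWAT, Gng5 at -0.12 against BAT and Rgs3 at -0.998 and -1.28. Of the called members, 22 of 25, 15 of 26 and 6 of 18 kept direction and call under every setting that gave a value, in iWAT against BAT, eWAT against BAT and eWAT against iWAT. Without TMM factors 9107 genes were higher and 4732 lower in iWAT against BAT, with a median log2 fold change of 0.27 over all genes against 0.01. Depth limits the members under an RPKM of 0.2, of which most had too few reads to be tested.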
